A study of Mus musculus with 8 samples.

Results

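The genes described here encode the voltage-gated sodium channels, the voltage-gated calcium channels with their accessory subunits, the hyperpolarization-activated HCN channels, the sodium leak channel NALCN and the TRP channels. They were taken by name, as every gene whose symbol begins with Scn, Cacna, Cacnb, Cacng, Hcn, Trpa, Trpc, Trpm or Trpv in the form used for these families, plus Nalcn. This gave 58 of the 16733 gene names in the data. One of them, Trpc4ap, carries the prefix but encodes an adaptor protein and not a channel. It was left out of the counts and sums of channel genes, which leaves 57 channel genes. Trpc4ap remains in counts of the 58 names and among the named genes of the closing checks. A further 10 genes of these families were not listed in any neuron, among them Scn10a, Cacng1, Cacng6, Cacng8, Trpc2, Trpm5, Trpm8, Trpv5 and Trpv6.

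The study used Patch-seq, in which a neuron is first recorded with a patch pipette and then collected for RNA sequencing, on 8 single neurons of the ventrolateral part of the ventromedial hypothalamus (vlVMH) of female ERα-ZsGreen mice. In these mice the promoter of the estrogen receptor alpha gene drives the green reporter ZsGreen, and every neuron carried that reporter. Glucose-excited (GE) neurons 1, 4, 6 and 8 hyperpolarized on a drop of the bath glucose (5 mM, then 1 mM), while glucose-inhibited (GI) neurons 2, 3, 5 and 7 depolarized. The animals received no other treatment that the labels name, and an age is stated only as a range over all mice of the study. The 8 neurons came from 2 mice, and no source used here ties a neuron to a mouse, so each class counts as 1 sample, differences between the classes have no replicate check, and no p-value is given. All values are FPKM (fragments counted on a gene, divided by its length and by the mapped fragments of the library). Levels of different genes can be compared only roughly, because the annotation that set the gene lengths is not given.

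Voltage-gated sodium and calcium channels open on depolarization, the first carrying the upstroke of the action potential and the second bringing in calcium that triggers transmitter release and shapes firing. HCN channels open on hyperpolarization and NALCN conducts sodium at rest, so both contribute to the resting potential and to pacemaking. TRP channels are cation channels gated by lipids, calcium, temperature or chemicals, and in hypothalamic neurons some of them carry depolarizing currents.

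The library of GI neuron 3 held 126914 reads, against 6144126 to 14900568 reads in the other 7 neurons, and the study left this neuron out. It listed 17 of the channel genes, none with more than 3 fragments, and class means given below are therefore those of 4 GE neurons and 3 GI neurons. The other neurons each listed 42 to 51 of the 58 names. Neuronal markers as a sum were high in all 7 neurons (summed level of Snap25, Syt1, Rbfox3 and Tubb3 476 to 573 FPKM in GE neurons and 451 to 536 FPKM in GI neurons). Snap25, at 251 to 384 FPKM, made up most of that sum. Of 5 markers of vlVMH ERα neurons, Tac1 (348 to 637 FPKM), Cckar (2.15 to 7.92 FPKM) and Pgr (0.0361 to 1.69 FPKM) were listed in all 7 neurons. Nr5a1 was listed in 6 of 7. Esr1, the gene of the receptor itself, was listed in 4 of 7, at no more than 1.04 FPKM. Markers of glia were also present. The summed level of 6 oligodendrocyte markers was 462 to 1122 FPKM in GE neurons and 315 to 618 FPKM in GI neurons. Of these, 5 of 6 were higher in the GE mean. The sum of 6 astrocyte markers was 1038 to 2631 FPKM in GE neurons and 1166 to 1880 FPKM in GI neurons, with 6 of 6 higher in the GE mean. Aldoc, at 685 to 2182 FPKM, made up most of the astrocyte sum. The other astrocyte markers ran from Aqp4, at 1.42 to 7.31 FPKM, to S100b, at 136 to 483 FPKM. For 6 microglial markers the range was 365 to 908 FPKM in GE neurons and 429 to 806 FPKM in GI neurons, and for 5 endothelial markers it was 0.253 to 17.6 FPKM in GE neurons and 1.74 to 6.46 FPKM in GI neurons. Of the endothelial markers, Cldn5 and Pecam1 were at 0 in 4 of 7 neurons each, while Ly6c1 reached 16.0 FPKM in GE neuron 4 and Flt1 was listed in 6 of 7. The sum of 4 ependymal markers was 106 to 126 FPKM in GE neurons and 115 to 156 FPKM in GI neurons. Rarres2, at 97.7 to 136 FPKM, made up most of it. The part of these other cells in the channel levels was not tested.

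Channel genes as a group were of low to moderate level, and few of them separated the classes, as was so for all genes. Of the 57 genes, 33 were listed in all 7 neurons (57.9%, against 61.4% of all listed genes), and 33 had a mean of at least 1 FPKM in either class (57.9%, against 74.7% of all genes). At least 5 FPKM was reached by 11 genes (19.3%, against 42.2%). Among the 33 genes that passed 1 FPKM, 1 was at least 2-fold higher in GE neurons on the log2(FPKM + 1) scale (Cacng4), where 5.83% of all genes were, and 1 was at least 2-fold higher in GI neurons (Cacng7), where 4.4% of all genes were. In none of them did every GE neuron lie above every GI neuron (2.72% of all genes) or every GI neuron above every GE neuron (2.01%). With 33 genes, such small counts do not set the channel genes apart from all genes. On the log2(FPKM + 1) scale, the ratio of GE to GI neurons had a median of 0.07 over the 33 genes and 0.02 over all genes. The median size of the ratio without its sign was 0.17, against 0.32. These sizes are not matched for level, since the median level was 3.10 FPKM for the 33 genes, against 5.36 FPKM, and the added 1 FPKM shrinks ratios of low genes more. The mean was higher in GE neurons for 19 of the 33 (57.6%, against 52.1% of all genes). The levels of the channel genes, ordered by family, are shown in the heat map.

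**Figure D1:**
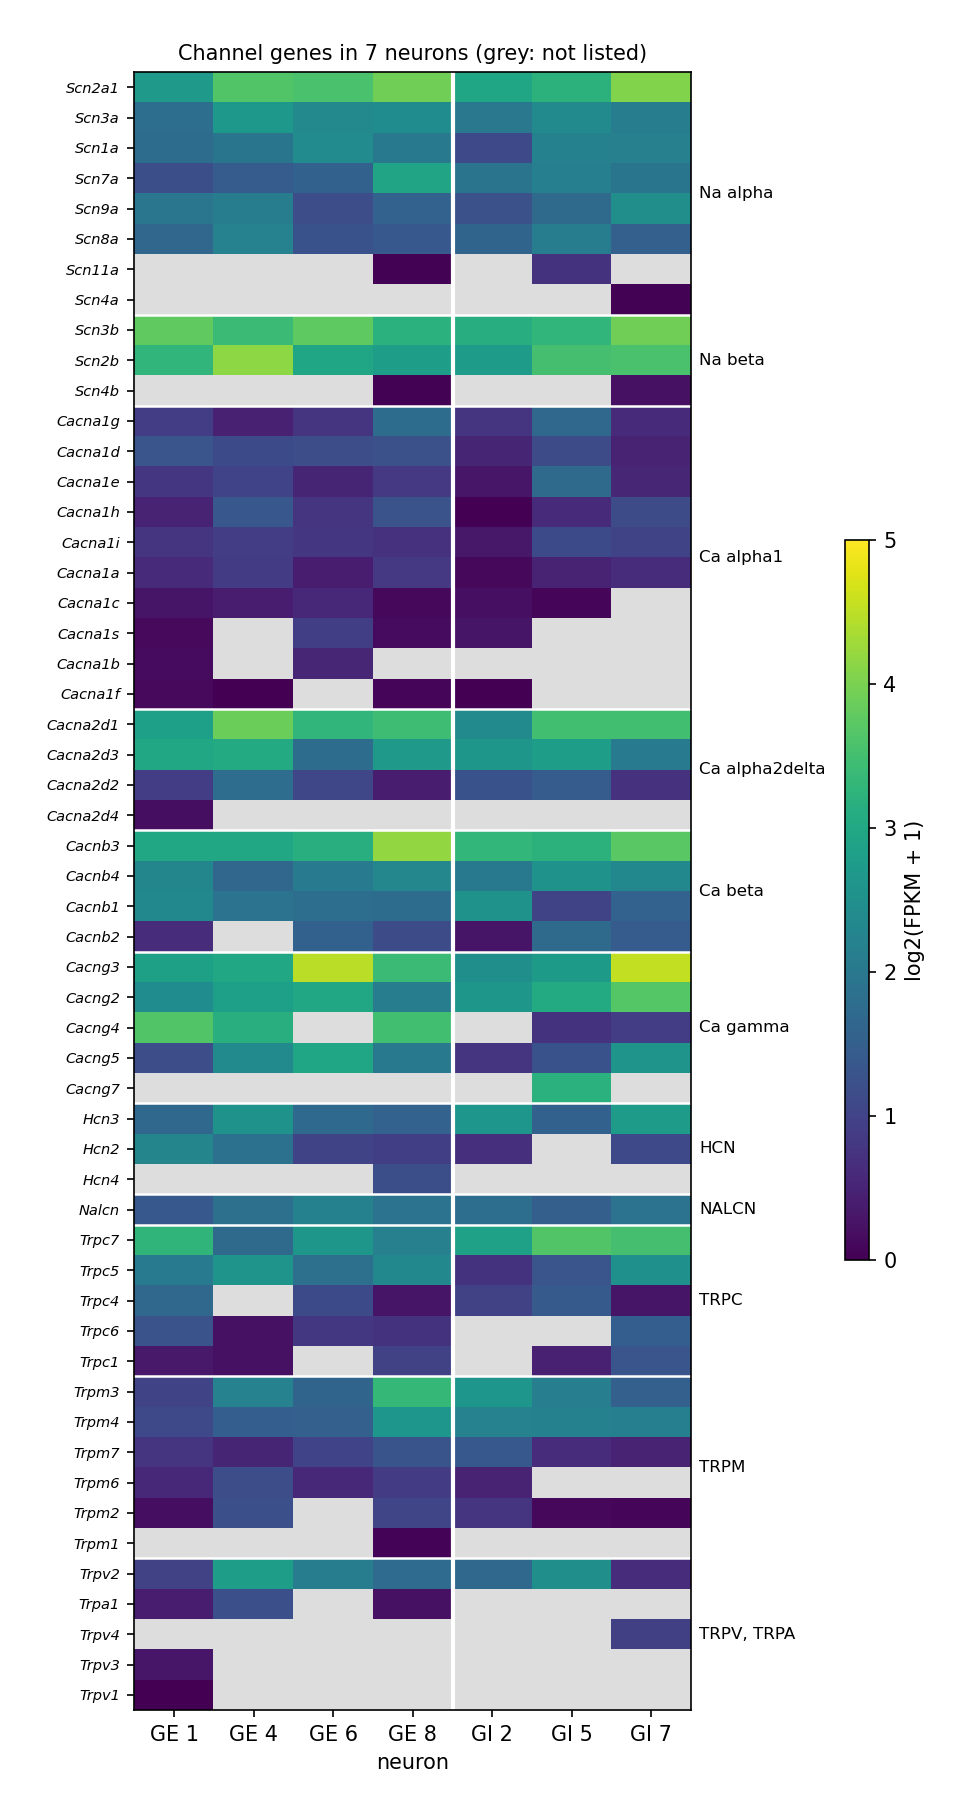
Level of the channel genes (rows, grouped by family, a few genes not shown) in GE neurons 1, 4, 6 and 8 and GI neurons 2, 5 and 7 (columns), as log2(FPKM + 1), with grey where a gene was not listed. Scn2b, Scn3b and Scn2a1 were bright in nearly every neuron, and Cacng4 was bright in 3 GE neurons.

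Genes for the pore of the sodium channel differed little between the classes. Summed over the family, the alpha genes reached 25.4 ± 6.29 FPKM in GE neurons, against 25.6 ± 7.86 FPKM in GI neurons (mean ± SD over 4 and 3 neurons, here and below). Scn2a1, which encodes a sodium channel found in axons of excitatory neurons, made up 40.7% of this sum. Its level was 5.52, 11.5, 10.9 and 14.02 FPKM in GE neurons 1, 4, 6 and 8, and 6.72, 8.25 and 15.6 FPKM in GI neurons 2, 5 and 7. The ranges overlapped over nearly their whole length, with a log2 ratio of 0.04. Scn1a, Scn3a, Scn8a and Scn9a, the other pore genes used by central or sensory neurons, had class means between 2.20 and 4.09 FPKM and log2 ratios of -0.15 to 0.17. Scn7a, which encodes a channel that senses sodium concentration, was at 1.30, 1.74, 1.94 and 6.54 FPKM in GE neurons, against 2.78, 3.48 and 2.85 FPKM in GI neurons. A single GE neuron, neuron 8, set the GE mean of Scn7a. Scn1a, Scn2a1, Scn3a, Scn7a and Scn9a lie in a single cluster on chromosome 2. Scn4a, the gene of the skeletal muscle channel, and Scn11a of sensory neurons were low, at no more than 0.669 FPKM in any neuron.

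Sodium channel beta genes were the most abundant family by summed FPKM. These encode single-pass membrane proteins that tune gating and act in cell adhesion. The family sum was 38.0 ± 8.24 FPKM in GE neurons, against 35.1 ± 16.3 FPKM in GI neurons. Scn3b was the steadiest channel gene. It was at 12.8, 9.63, 12.6 and 8.11 FPKM in GE neurons, against 7.68, 8.85 and 14.2 FPKM in GI neurons, a 1.84-fold range over all 7. For comparison, the median range was 3.95-fold over the 33 channel genes listed in every neuron, a set that differs from the 33 that passed 1 FPKM, and 3.76-fold over all 10182 such genes. Scn2b was at 8.81, 16.9, 6.69 and 5.87 FPKM in GE neurons, against 5.77, 10.5 and 10.8 FPKM in GI neurons, so its classes overlapped. The ratio of the beta sum to the alpha sum ran between 0.905 in GE neuron 8 and 2.60 in GE neuron 1, which also overlapped with the GI neurons.

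**Figure D2:**
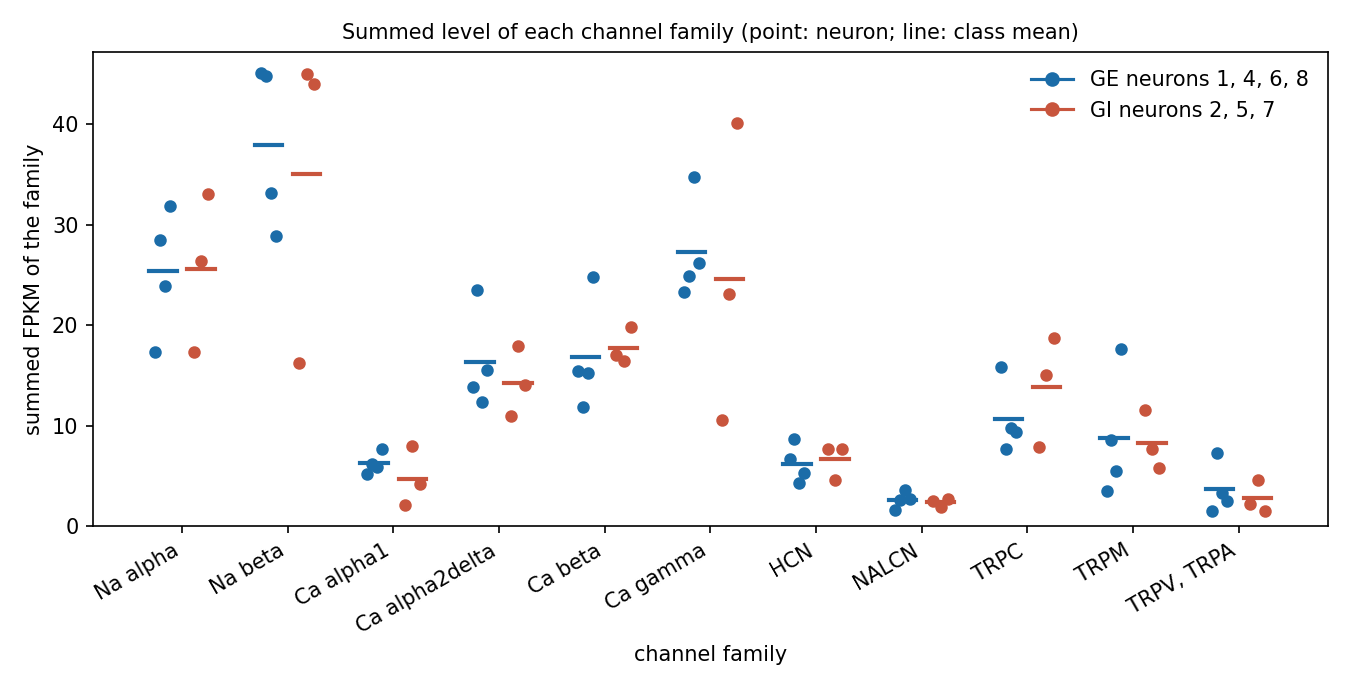
Summed FPKM of each channel family in each neuron (points) with the class mean (line), GE neurons in blue and GI neurons in red. The points of the 2 classes overlap in every family, and sodium channel beta has the highest class means (38.0 FPKM in GE neurons, against 35.1 FPKM in GI neurons).

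Calcium channel pore genes were low in both classes, with a family sum of 6.23 ± 1.03 FPKM in GE neurons, against 4.74 ± 2.97 FPKM in GI neurons. All 10 were listed, but only 3 passed 1 FPKM. Cacna1g, a T-type pore that opens near rest, had the highest mean over the 7 neurons and was at 0.880, 0.379, 0.683 and 2.40 FPKM in GE neurons, against 0.701, 2.23 and 0.533 FPKM in GI neurons. Cacna1d, an L-type pore that supports pacemaking, was at 1.48, 1.17, 1.27 and 1.35 FPKM in GE neurons, against 0.434, 1.21 and 0.413 FPKM in GI neurons. The GE values lay within a narrow band, and GI neuron 5 fell inside it while GI neurons 2 and 7 lay below, on 4.47 and 3.62 fragments. Cacna1c, the main L-type pore of brain and heart and a gene of the study's own list of differing genes, was at 0.224, 0.310, 0.479 and 0.0841 FPKM in GE neurons, against 0.153, 0.0671 and 0 FPKM in GI neurons. No neuron had more than 4.48 fragments of it, and summed fragments were 11 in GE neurons and 1 in GI neurons, a ratio per depth of 6.24 with an exact 95% counting interval of 0.907 to 269. Because the study chose Cacna1c on these neurons, its direction is not independent evidence.

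The L-type genes, when summed, did not overlap between the classes, in a grouping formed after the values were seen and beside other groupings that did overlap (2.72% of single genes that passed 1 FPKM behaved so). Their summed level (Cacna1c, Cacna1d, Cacna1f and Cacna1s) was 1.87, 1.49, 2.65 and 1.61 FPKM in GE neurons, against 0.804, 1.28 and 0.413 FPKM in GI neurons. Every GE neuron was thus above every GI neuron, with GE neuron 4 and GI neuron 5 the closest. The intervals of Cacna1d alone in these neurons, 0.620 to 1.72 FPKM and 0.622 to 1.80 FPKM, cover this gap, and the sum includes Cacna1c, which the study chose on these neurons. The T-type sum (Cacna1g, Cacna1h and Cacna1i) overlapped, at 1.96 to 4.48 FPKM in GE neurons and 0.961 to 3.95 FPKM in GI neurons. The same held for the sum of the P/Q-, N- and R-type genes, which serve transmitter release, at 1.18 to 1.84 FPKM in GE neurons and 0.309 to 2.71 FPKM in GI neurons.

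Accessory genes of the calcium channel had higher FPKM sums than the pores, within the limit on comparing genes given above. In every neuron the alpha2delta sum was 2.03 to 5.26 times the pore sum and the beta sum was 1.93 to 8.22 times it, with the highest of both ratios in GI neuron 2, where the pore sum was lowest. Cacna2d1, the alpha2delta subunit that binds gabapentin, was at 6.05, 13.8, 8.85 and 9.84 FPKM in GE neurons, against 4.25, 10.2 and 10.2 FPKM in GI neurons. Cacna2d3 averaged 5.50 ± 2.21 FPKM in GE neurons, against 4.82 ± 1.45 FPKM in GI neurons. Both genes overlapped between the classes. Cacnb3, a cytoplasmic beta subunit that brings the pore to the membrane, was at 6.97, 6.96, 7.76 and 17.2 FPKM in GE neurons, against 8.96, 8.22 and 12.1 FPKM in GI neurons. Its mean was 9.72 FPKM in GE neurons, against 9.76 FPKM in GI neurons, and GE neuron 8 stood above the rest.

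The Cacng genes held the largest differences in both directions. Cacng2, Cacng3, Cacng4, Cacng5 and Cacng7 encode proteins that were named for a calcium channel subunit but act as auxiliary subunits (TARPs) of AMPA-type glutamate receptors. Cacng4 was at 11.5, 7.82, 0 and 10.3 FPKM in GE neurons 1, 4, 6 and 8, and 0, 0.659 and 0.866 FPKM in GI neurons 2, 5 and 7. It was therefore high in 3 of 4 GE neurons and low or not listed in all 3 GI neurons, with GE neuron 6 inside the GI range. Class means were 7.39 ± 5.16 FPKM in GE neurons, against 0.508 ± 0.452 FPKM in GI neurons, a log2 ratio of 2.48. The 3 GE values rested on 34.2, 13 and 11.9 fragments, and the GI values of neurons 5 and 7 on 1 fragment each. Per depth, the 59 fragments of GE neurons and the 2 of GI neurons gave a ratio of 16.7 (exact 95% counting interval 4.43 to 141). That interval leaves out the spread between neurons. It is no test of the classes, because Cacng4 was picked for its difference in these same values. At the GE mean, 7.65 fragments would have fallen in GE neuron 6 and 9.54 in GI neuron 2, the libraries that did not list it. GI neuron 3 listed Cacng4 at 38.5 FPKM on 1 fragment, and with it the log2 ratio was -0.39. The oligodendrocyte marker sum, neuron by neuron, was 462, 1122, 502 and 959 FPKM in GE neurons 1, 4, 6 and 8 and 315, 513 and 618 FPKM in GI neurons 2, 5 and 7, and its part in the Cacng4 difference was not tested. Cacng4 lies at chr11:107732357-107794557 on the minus strand of GRCm38, next to Cacng5.

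Other TARP genes did not follow Cacng4. Cacng5 averaged 3.77 ± 2.25 FPKM in GE neurons, against 2.37 ± 2.31 FPKM in GI neurons, and GE neuron 6, which did not list Cacng4, had its highest value, 6.62 FPKM. Cacng3 was at 6.20, 6.93, 21.3 and 9.65 FPKM in GE neurons, against 4.64, 5.57 and 22.3 FPKM in GI neurons. It was highest in 1 neuron of each class, GE neuron 6 and GI neuron 7, whose intervals (14.2 to 28.4 FPKM and 15.5 to 29.2 FPKM) lay above those of the other neurons, the nearest of which ended at 14.1 FPKM. Cacng2, known as stargazin, was at 4.40, 6.04, 6.85 and 3.28 FPKM in GE neurons, against 5.26, 7.36 and 11.9 FPKM in GI neurons, with a log2 ratio of -0.58 and overlapping classes. Cacng7 was listed in GI neuron 5 alone, at 8.13 FPKM on 9.59 fragments (interval 2.88 to 13.4 FPKM), so its place among the genes higher in GI neurons rests on 1 neuron and no fold is given. At the GI mean it would have given 2.22 to 6.63 fragments in each GE library. Summed over Cacng2, Cacng3 and Cacng4, the level was 20.8 to 28.2 FPKM in GE neurons and 9.90 to 35.1 FPKM in GI neurons, so the class with less Cacng4 did not have a lower sum in every neuron.

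**Figure D3:**
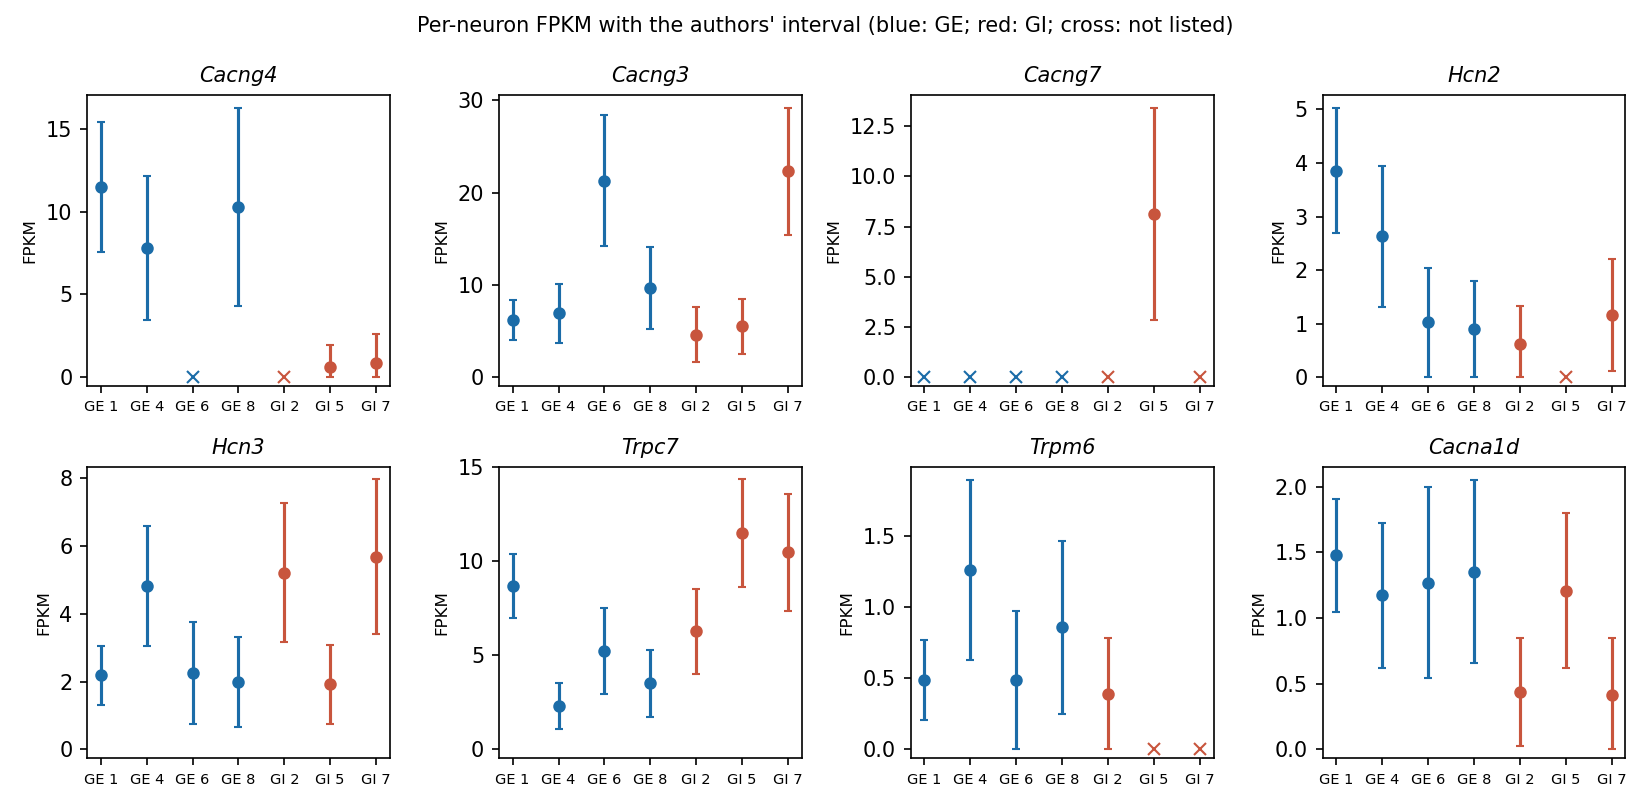
FPKM (vertical axis) of Cacng4, Cacng3, Cacng7, Hcn2, Hcn3, Trpc7, Trpm6 and Cacna1d in each neuron, GE neurons in blue and GI neurons in red, with the interval given by the authors as bars and a cross where the gene was not listed. Cacng4 sits at 7.82 to 11.5 FPKM in 3 GE neurons and at or below 0.866 FPKM in the GI neurons, and GI neuron 5 alone lists Cacng7, at 8.13 FPKM.

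HCN genes had like sums in the classes, while their members leaned in different directions. The family sum was 6.22 ± 1.90 FPKM in GE neurons, against 6.64 ± 1.78 FPKM in GI neurons. Hcn2, a pore with strong cyclic AMP dependence, was at 3.86, 2.63, 1.03 and 0.902 FPKM in GE neurons, against 0.615, 0 and 1.16 FPKM in GI neurons. GE neurons 1 and 4 were above all GI neurons, and GE neurons 6 and 8 were below GI neuron 7. Its class means were 2.10 ± 1.41 FPKM in GE neurons, against 0.593 ± 0.582 FPKM in GI neurons, a ratio of 3.55. After 1 FPKM was added to these low means the log2 ratio was 0.96, under the threshold of 1, and a pseudocount of 0.1 FPKM gave 1.67. The ratio of fragments per depth was 4.82 (exact 95% counting interval 2.31 to 11.6, from 68 fragments in GE neurons and 8 in GI neurons). GE neuron 1, the deepest library, held 44.3 of the GE fragments of Hcn2. The interval leaves out the spread between neurons and is no test of the classes. GI neuron 3 listed Hcn2 at 20.1 FPKM on 1.99 fragments, and with it the log2 ratio was -1.06. Hcn3, the most abundant of the family at 53.7% of its sum, was at 2.18, 4.83, 2.26 and 1.98 FPKM in GE neurons, against 5.22, 1.92 and 5.69 FPKM in GI neurons. Its mean was higher in GI neurons (log2 ratio -0.47), but GI neuron 5 had the lowest value of all. Hcn4 was listed in GE neuron 8 alone, at 1.31 FPKM on 7 fragments. Nalcn, the leak channel, was at 1.597, 2.59, 3.56 and 2.74 FPKM in GE neurons, against 2.49, 1.87 and 2.73 FPKM in GI neurons, which overlapped.

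Trpc7 was the most abundant of the TRP channel genes and had the higher mean in GI neurons. TRPC channels open downstream of receptors that activate phospholipase C, and Trpc7 belongs to the members gated by diacylglycerol. Trpc7 was at 8.68, 2.31, 5.23 and 3.52 FPKM in GE neurons, against 6.28, 11.5 and 10.5 FPKM in GI neurons. GI neurons 5 and 7 were above all GE neurons, and GE neuron 1 was above GI neuron 2. Class means were 4.94 ± 2.77 FPKM in GE neurons, against 9.42 ± 2.77 FPKM in GI neurons, a log2 ratio of -0.81. With each neuron left out in turn the log2 ratio was between -1.15 (without GE neuron 1) and -0.61 (without GE neuron 4). The overlap was lost when GE neuron 1 or GI neuron 2, the neurons that made it, was left out, and was kept in the other cases. The 156 fragments in GE neurons and 142 in GI neurons gave a ratio per depth of 0.623 (exact 95% counting interval 0.493 to 0.788). GE neuron 1 held 105 of the GE fragments of Trpc7. Here too the interval leaves out the spread between neurons and is no test of the classes. Trpc5, which forms calcium-permeable channels opened through Gq-coupled receptors, leaned the other way, at 3.19, 5.02, 2.62 and 4.02 FPKM in GE neurons, against 0.659, 1.49 and 4.69 FPKM in GI neurons. GI neuron 7 lay inside the GE range of Trpc5 and the other GI neurons below it. Trpc1, Trpc4 and Trpc6 had class means under 1 FPKM, and for Trpc4 the means were nearly the same, 0.908 FPKM in GE neurons, against 0.945 FPKM in GI neurons.

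Of the TRPM, TRPV and TRPA genes, Trpm3, Trpm4 and Trpv2 passed 1 FPKM in a class mean. Trpm4, a cation channel opened by internal calcium, was at 1.14, 1.83, 1.90 and 5.18 FPKM in GE neurons, against 3.65, 3.59 and 3.45 FPKM in GI neurons. The GI neurons were close to each other and above 3 of 4 GE neurons, and GE neuron 8 was above them all. Trpm3, a channel opened by heat and by the steroid pregnenolone sulfate, was at 1.05, 3.66, 2.05 and 9.06 FPKM in GE neurons, against 5.20, 3.42 and 1.89 FPKM in GI neurons, so GE neuron 8 again had the highest value. Trpm6, a magnesium-permeable channel joined to a kinase, was at 0.488, 1.26, 0.488 and 0.857 FPKM in GE neurons, against 0.390, 0 and 0 FPKM in GI neurons. All GE neurons were above all GI neurons, and Trpm6 was the only one of the 57 genes for which this held without a filter on level (1.75%, against 2.27% of all genes). For none of the 57 was every GI neuron above every GE neuron without that filter (1.66% of all genes). The gap between GE neuron 6 and GI neuron 2 was small, since both values rested on 3.996 fragments. The ratio of fragments per depth was 5.67 (exact 95% counting interval 2.05 to 21.8, from 40 fragments in GE neurons and 4 in GI neurons). That interval leaves out the spread between neurons and is no test of the classes. Trpm6 was, like Cacna1c, on the study's own list from these neurons. Trpv2 made up 87.0% of the TRPV and TRPA sum and ranged widely, at 0.961, 5.97, 3.31 and 2.38 FPKM in GE neurons, against 2.17, 4.61 and 0.545 FPKM in GI neurons. Trpa1, the irritant receptor, was listed at 0.316, 1.34 and 0.166 FPKM in GE neurons 1, 4 and 8 and in no GI neuron, where its GE mean would have given 2.67 to 3.47 fragments. Trpv1, the capsaicin receptor, was listed in GE neuron 1 alone and Trpv4 in GI neuron 7 alone, both under 1 FPKM.

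**Figure D4:**
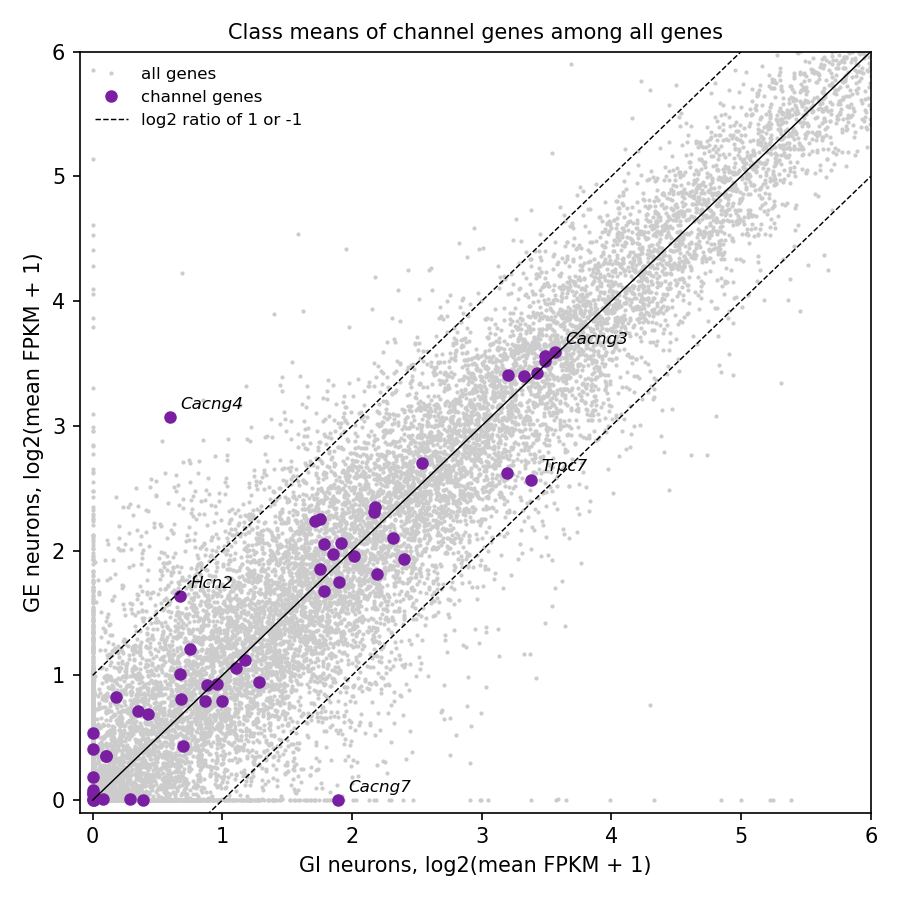
Class means of the channel genes (purple, a few not marked) among all genes (grey), with GE neurons on the vertical axis and GI neurons on the horizontal axis, both as log2(mean FPKM + 1). Dashed lines mark a log2 ratio of 1 and -1. Cacng4 and Cacng7 lie outside the dashed lines, and Hcn2 (0.96) and Trpc7 (-0.81) lie inside them.

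The lowest and highest channel levels were not spread evenly over the neurons. Among the 33 channel genes listed in all 7 neurons, GI neuron 2 had the lowest value for 12 (36.4%), where it had the lowest for 19.9% of all genes listed in every neuron. GE neuron 4 had the highest value for 10 (30.3%), where it had the highest for 11.6% of all such genes. Relative depth, read from the worth of 1 fragment, was 0.418 in GI neuron 2 and 0.525 in GE neuron 4, within the 0.335 to 1 of the 7 neurons. The total FPKM outside mitochondrial genes, relative to the mean of the 7 neurons, was 1.15, 0.901, 0.935 and 0.943 in GE neurons 1, 4, 6 and 8, against 1.27, 0.900 and 0.901 in GI neurons 2, 5 and 7. It was thus highest in GI neuron 2 and in GE neuron 1, which had the lowest value for 7 of the 33 genes (21.2%, against 13.9% of all genes). The library of GI neuron 2 was also lowest in Slc17a6, a marker of glutamatergic neurons, which was at 17.7 to 30.8 FPKM in GE neurons, against 6.71, 24.3 and 19.1 FPKM in GI neurons 2, 5 and 7. Among general neuronal markers it was lowest of the 7 in Syt1 (18.7 FPKM, the others 37.5 to 76.9 FPKM) and Rbfox3 (8.30 FPKM, the others 17.1 to 32.8 FPKM). It was lowest in Tubb3 too (96.2 FPKM, against 97.3 FPKM in GE neuron 1), but not in Snap25 (350 FPKM). Its summed level of 3 GABAergic markers was 60.8 FPKM, within the 51.6 to 78.9 FPKM of the 7 neurons. The part of these values in the channel levels was not tested.

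The list of partner genes held 48 genes for proteins that bind, anchor or regulate the channels (among them FGF homologous factors and ankyrins for sodium channels, UNC proteins for NALCN, Rab3-interacting molecules and RGK proteins for calcium channels, STIM and Orai, calmodulin and its kinases), of which 43 were found and 38 passed 1 FPKM. Their median log2 ratio was -0.05, against 0.02 over all genes. At least 2-fold higher in GE neurons was 1 of 38, where 5.83% of all genes were, and 0 of 38 were so in GI neurons, where 4.4% of all genes were. That gene was Pex5l, which encodes TRIP8b, an auxiliary subunit that steers HCN channels to dendrites. It was at 8.77, 6.10, 0 and 5.03 FPKM in GE neurons 1, 4, 6 and 8 and 0, 1.34 and 1.77 FPKM in GI neurons 2, 5 and 7, with means of 4.97 FPKM in GE neurons, against 1.04 FPKM in GI neurons, and a log2 ratio of 1.55. Like Cacng4, it was high in GE neurons 1, 4 and 8 and not listed in GE neuron 6 and GI neuron 2. Both genes were picked by the same rule on these values. The share of all genes with this pattern was not computed, so the likeness has no background.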

How the data were processed

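Each of the 8 neurons is a library of its own, made with a full-length kit that does not mark strand, so reads of overlapping genes cannot be told apart. The authors deposited FPKM values per gene with a lower and an upper bound, only for genes above 0. For the tool, annotation and build of the FPKM values: not given in the sources used here. Labels list a mouse and a human genome build and name human cells beside the mouse neurons, and title, source and paper, which say mouse, were followed. Submitters' notes name Trim Galore 0.4.1, STAR 2.5.3a and featureCounts 1.6.0, and output of the study's own test was not used. Their quality table, as deposited, gives reads and the fraction of reads mapped (48.2% to 77.3% in the 7 neurons and 40.3% in GI neuron 3), and the authors' means and test below it were not used.

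A gene not listed counts as 0. Names with several loci (110) and names that a spreadsheet had made into dates (24) were dropped, so that 16583 genes were listed in the 7 neurons, 12389 of them with a class mean of at least 1 FPKM. Class levels are means of neurons, and log2 ratios of GE over GI neurons use a pseudocount of 1 FPKM, so they understate changes of low genes. Fragments were read from the upper arm of the interval as 2 SD of counting error, and of the values of 5 fragments or fewer, 55.0% to 61.5% per neuron were whole to within 0.05, so single fragment numbers are estimates. Exact 95% intervals of fragment ratios (conditional binomial) were added after the data were seen and cover counting error only. They treat each fragment as an independent draw. The cDNA was amplified before sequencing, so several fragments can stem from 1 transcript, and the intervals are then too narrow. They are no test of the classes. With 1 sample per class no model was fitted.

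Members and lists were chosen with earlier results of these data known. Values were given for members of at least 5 FPKM, members passing a class rule at 1 FPKM, the highest of each family, Cacna1c and Trpm6 from the study's list, the HCN genes and Nalcn. Other members were named after their values were seen. Some genes that this rule takes are not reported here, though sums and counts include them. File positions did not match GRCm38 (both ends within 1000 bp for 1 of 58), so positions are from GENCODE on GRCm38.

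Alternatives were the median over neurons, the addition of GI neuron 3, leaving out each neuron in turn, pseudocounts of 0.1 and 5 FPKM, no filter or 5 FPKM, median-of-ratios scaling and scaling by the sum without mitochondrial genes. Python 3.11.15, numpy 2.4.6, pandas 2.3.3, scipy 1.17.1 and matplotlib 3.10.9 were used, and the computations were tested on simulated data.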

Additional observations from a re-analysis of the deposited data

Results flagged for a closer look

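FPKM values of the 4 GE neurons were compared for 23 named genes and 10 family sums, and 3 of these 33 held 1 neuron that stood apart from the other 3. The rule flags about 1 in 20 groups when values are independent and normally distributed. These values include zeros, and the family sums contain named genes, so that rate need not hold here. Other genes were not checked. Cacnb3 was at 17.2 FPKM in GE neuron 8, against 6.96 to 7.76 FPKM in the other GE neurons. Hcn3 was at 4.83 FPKM in GE neuron 4, against 1.98 to 2.26 FPKM in the others, a value that lay within the GI range. Hcn4 was at 1.31 FPKM in GE neuron 8 and not listed in the other GE neurons, a pattern that is picked out whatever the single value is.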

How the results depend on the processing

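Of 299 recomputed log2 ratios of single named genes, 285 shifted by less than 1 SD between neurons of a class and 13 by more. The remaining 1, of Cacng4, changed direction with GI neuron 3 added. A change of direction was counted only for genes with a main log2 ratio past 1 or -1. Smaller ratios also changed sign without being counted so, and those of Cacna1g and Cacnb3 kept their sign in 7 of 13 settings each. Of 250 recomputed counts, family sums and partner gene summaries, 216 stayed within the same SD or, for counts, within 1.5 times, and 34 did not. Family sums changed sign within that SD, as the TRPM sum did, with log2 ratios of -0.45 to 0.34 when a neuron was left out. The median over neurons gave 4 partner genes higher in GE neurons and 1 in GI neurons. With GI neuron 3 added, 0 channel genes were at least 2-fold higher in GE neurons and 5 in GI neurons (Cacng2, Cacng7, Hcn2 and Trpv2 were of these), 14 were listed in every neuron, and the log2 ratio was -0.39 for Cacng4, -0.79 for the calcium channel gamma sum, -0.84 for the HCN sum and -0.94 for the TRPV and TRPA sum. No value of GI neuron 3 rested on more than 3 fragments. A pseudocount of 0.1 FPKM gave 2 genes higher in GE neurons (Cacng4 and Hcn2), and 5 FPKM gave 0 higher in GI neurons and 0 partner genes higher in GE neurons. A level of at least 5 FPKM gave 0 channel genes higher in GI neurons and 0 partner genes higher in GE neurons. Without a filter, 1 gene (Trpm6) had every GE neuron above every GI neuron. With each neuron left out in turn, 1 to 4 channel genes were higher in GE neurons (4 without GI neuron 7: Cacng4, Cacng5, Hcn2 and Trpc5) and 0 to 2 in GI neurons (0 without GI neuron 5; Trpc7 joined Cacng7 without GE neuron 1 or GI neuron 2). Genes with every GE neuron above every GI neuron numbered 0 to 3, and the reverse 0 to 4. Partner genes higher in GE neurons numbered 1 to 4, and those higher in GI neurons 0 to 2. No share of all genes was computed with a neuron left out, with GI neuron 3 added or for medians over neurons. The same holds for the other pseudocounts and the limit of 5 FPKM. Counts at these settings are therefore not set against a background. Cacng4 stayed at least 2-fold higher in GE neurons under each setting except GI neuron 3 added. The cause of these shifts was not tested. No paired analysis was possible because no source used here ties a neuron to a mouse. Depth limits genes near 1 FPKM, where a value rests on a few fragments.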
